A study of Lactuca sativa with 32 samples.

Results

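The genes described are the 150 steadiest genes of medium abundance in leaves of red oak leaf lettuce (Lactuca sativa). They were picked by measured values. The level of a gene, CPM, is its count scaled to a total of 1000000 counts in each sample. Of 43717 genes listed, 31045 had a read and 8778 had a mean CPM from 20 to 200 over 32 samples. These 8778 genes are called the window. Its genes were ranked by the coefficient of variation (CV, the SD over the 32 samples divided by the mean, in percent), and the 150 lowest were kept. Their low spread is therefore the rule itself, and every level, CV or fold change of a member below is a description of the values that chose it.

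A reference gene is a gene whose transcript level is used as a yardstick for other genes, for example in quantitative PCR. The usual requirement is that the level stays the same across the tissues and treatments compared. Light changes the transcription of many leaf genes, those of photosynthesis and of the red anthocyanin pigments among them, so a yardstick for a light experiment has to be steady under each light condition. Steadiness also depends on what the counts are divided by, since CPM measures a gene against all other transcripts of the same leaf.

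Each sample was poly-A RNA from the leaf of a single plant. The light came from incandescent and ceramic metal halide lamps and passed through either clear glass (Control) or 1 of 3 organic photovoltaic (OPV) filters, semi-transparent solar cell layers named by their blend: FTAZ:PCBM, FTAZ:IT-M or PTB7-Th:IEICO-4F. In the PAR controlled experiment (PC) light intensity was adjusted, and in the height controlled experiment (HC) it was not. PAR is photosynthetically active radiation. The 8 groups are the 4 covers in each of the 2 experiments, with 4 plants in each group. All groups shared the lamps, the automated irrigation, transplanting at 3 weeks, 2 plants per pot and the rotation of pots. The labels do not say which sampled plants shared a pot, so plants of a group may not be fully separate. Plants were harvested at 3 and at 5 weeks, and the labels do not say which harvest gave the leaves. A box held 16 plants, and the labels do not tie boxes to groups, so a box and a filter cannot be told apart. In bulk leaf RNA, fewer cells of a type and less RNA per cell cannot be told apart either.

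The sum of counts per sample was 47289413 to 48764530, so depth was nearly equal. The 10 most abundant genes of a sample took 5.41% to 6.93% of its counts. In all 48 pairs of plants of 1 group the counts differed by more than sampling noise, with a chi-square per degree of freedom of 10.6 to 72.5 where noise alone gives about 1. The leaf label was not checked against marker genes, since every member and every other window gene carries only a LOC identifier here. All 150 members are protein-coding genes in the RefSeq table of assembly Lsat_Salinas_v11, against 97.6% of the window. The window holds 160 long non-coding RNAs, of which 0 are members. No gene role is given below, since neither the count files nor that table names a product. Positions come from the count files and refer to Lsat_Salinas_v7.

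Members had mean levels from 20.6 CPM in LOC111919899 to 181 CPM in LOC111893162, with a median of 56.7 CPM against 42.9 CPM over the window. Their mean counts ran from 992 to 8690 reads. CVs ran from 3.07% to 6.10% with a median of 5.68%, against a window median of 12.7% and a window maximum of 150%. Counting error alone would give members a median CV of 1.91%, from 1.07% to 3.18%. The ratio of the highest to the lowest plant ran from 1.18 to 1.40 with a median of 1.27. It was under 1.5 in all 150 members and in 2240 of the 8778 window genes, or 25.5%. Only 18 members had a CV under 5%.

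The list has no gap at its end. The last 3 members are LOC111886163, LOC111887301 and LOC111918474, with CVs of 6.10% in each. The first genes left out, LOC111879066, LOC111882005 and LOC111899239, had CVs of 6.10%, 6.11% and 6.11%. Outside the window, 8 genes of mean 1 to 20 CPM and 9 genes over 200 CPM had a CV at or under that of the last member. Members made up 1.31% of window genes between 20 and 50 CPM (67 of 5128), 2.18% between 50 and 100 CPM (55 of 2525) and 2.49% between 100 and 200 CPM (28 of 1125). The median CV of window genes in these classes was 12.6%, 12.4% and 13.5%, so it did not fall with abundance as the counting error did.

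**Figure D1:**
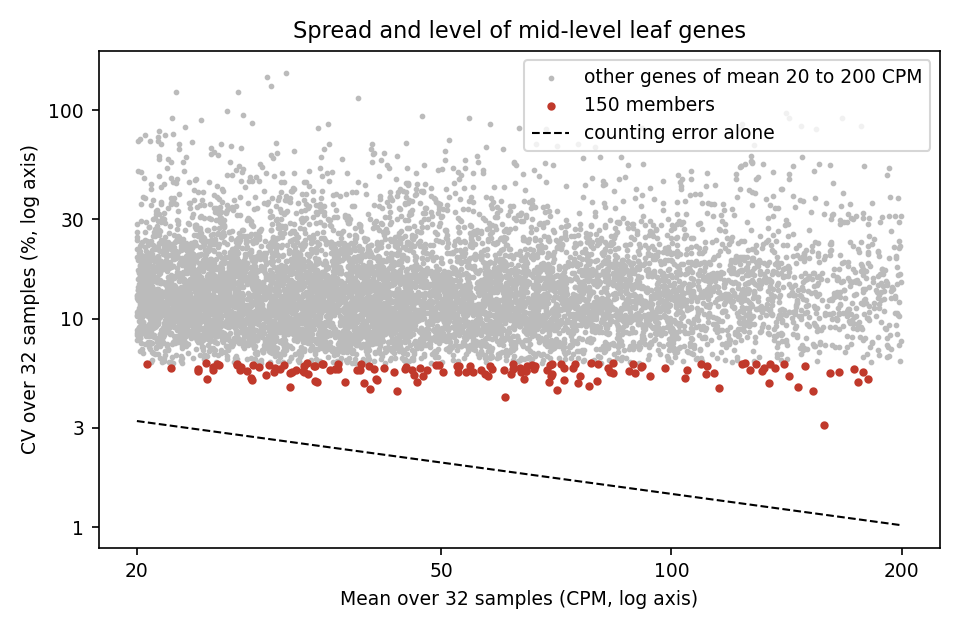
Spread against level for the window genes. Mean CPM over 32 samples is on x and CV over the same samples, in percent, on y, both on log axes. The 150 members are in red and other genes in grey. The dashed line is the CV from counting error alone at the mean depth. Members form the lower edge at all levels, from 3.07% to 6.10%, and LOC111902581 sits alone below the others.

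LOC111902581 had the lowest CV of the window, 3.07% around 158.4 CPM. It lies on scaffold NW_019673891.1 from 1322769 to 1324642 on the plus strand and has 1628 exonic bases in 3 separate exon blocks. Its group means ran from 155.7 ± 4.65 CPM in HC Control to 161.2 ± 11.6 CPM in HC PTB7-Th:IEICO-4F (SD, n = 4 in each group here and below). In PC it stood at 158.3 ± 2.35 in Control, 160.3 ± 2.69 under FTAZ:IT-M, 158.9 ± 2.35 under FTAZ:PCBM and 159.1 ± 4.43 CPM under PTB7-Th:IEICO-4F. In HC it stood at 156.1 ± 2.66 under FTAZ:IT-M and 157.6 ± 2.89 CPM under FTAZ:PCBM. All groups overlapped. A single plant, HC PTB7-Th:IEICO-4F replicate 4 at 178.3 CPM, stood apart from the other 31, which lay between 151.4 and 164.3 CPM. Without that plant the CV was 2.08%. Within PC alone it was 1.80%, and within HC alone 3.99%.

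The gene of second lowest CV was LOC111895126, 4.22% around 60.6 CPM, on scaffold NW_019682893.1 from 35751 to 39178 on the minus strand, with 1690 exonic bases in 5 blocks. Its plants ran from 54.8 to 66.1 CPM. Its group means were lowest in HC FTAZ:IT-M, 57.7 ± 2.19 CPM, and in PC PTB7-Th:IEICO-4F, 58.4 ± 3.02 CPM. They were 60.8 ± 2.52 in PC FTAZ:IT-M, 61.0 ± 1.44 in HC FTAZ:PCBM, 61.3 ± 1.71 in PC FTAZ:PCBM, 61.4 ± 1.43 in PC Control, 61.5 ± 3.5 in HC PTB7-Th:IEICO-4F and 62.4 ± 1.68 CPM in HC Control. The 4 HC FTAZ:IT-M plants, 54.8 to 59.5 CPM, lay below the 4 HC Control plants, 60.02 to 63.8 CPM. Each group overlapped its neighbours in this order of means.

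LOC111883640 had a CV of 4.47% around 153.03 CPM. It lies on scaffold NW_019680104.1 from 228466 to 231512 on the minus strand, with 1327 exonic bases in 9 blocks. Group means ran from 149.7 ± 9.96 CPM in HC Control, through 151.2 ± 6.47 in PC PTB7-Th:IEICO-4F, 151.2 ± 5.56 in HC FTAZ:IT-M, 151.5 ± 7.16 in HC FTAZ:PCBM, 153.8 ± 8.29 in PC Control, 154.3 ± 8.18 in PC FTAZ:IT-M and 154.7 ± 4.41 in HC PTB7-Th:IEICO-4F, to 157.9 ± 6.39 CPM in PC FTAZ:PCBM. The plants of the lowest and the highest group overlapped, 137.7 to 160.1 CPM against 153.5 to 167.2 CPM.

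LOC111894969 had a CV of 4.51% around 43.7 CPM and lies on scaffold NW_019682861.1 from 115273 to 117642 on the minus strand, with 1879 exonic bases in 4 blocks. Group means ran from 42.5 ± 2.11 CPM in PC FTAZ:IT-M to 44.8 ± 2.67 CPM in HC PTB7-Th:IEICO-4F, and their plants overlapped. Its other means were 42.6 ± 1.85 in PC Control, 43.2 ± 1.16 in PC PTB7-Th:IEICO-4F, 44.0 ± 1.45 in HC Control, 44.2 ± 2.05 in PC FTAZ:PCBM, 44.2 ± 1.85 in HC FTAZ:IT-M and 44.4 ± 2.67 CPM in HC FTAZ:PCBM. Each group overlapped its neighbours in the order of means.

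LOC111898497 had a CV of 4.57% around 70.8 CPM and lies on scaffold NW_019672991.1 from 103097 to 106067 on the plus strand, with 1942 exonic bases in 10 blocks. Its group means ran from 67.6 ± 2.74 CPM in HC PTB7-Th:IEICO-4F to 74.7 ± 3.98 CPM in PC FTAZ:IT-M. These groups did not overlap, with 64.6 to 70.5 CPM against 70.7 to 79.6 CPM. The other means were 69.5 ± 1.23 in PC PTB7-Th:IEICO-4F, 70.1 ± 1.91 in HC FTAZ:IT-M, 70.3 ± 3.20 in HC FTAZ:PCBM, 70.4 ± 2.71 in PC Control, 71.5 ± 1.95 in HC Control and 72.5 ± 4.07 CPM in PC FTAZ:PCBM.

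LOC111921010 had a CV of 4.60% around 40.3 CPM and lies on scaffold NW_019678082.1 from 480387 to 483258 on the minus strand, with 1616 exonic bases in 11 blocks. Its means were 38.9 ± 2.24 in HC FTAZ:IT-M, 39.8 ± 2.56 in HC PTB7-Th:IEICO-4F, 39.9 ± 1.06 in PC Control, 40.2 ± 1.86 in HC Control, 40.4 ± 1.2 in PC FTAZ:PCBM, 40.9 ± 2.92 in PC PTB7-Th:IEICO-4F, 41.0 ± 1.56 in PC FTAZ:IT-M and 41.3 ± 1.14 CPM in HC FTAZ:PCBM. Its lowest and highest plants were 35.9 CPM in HC FTAZ:IT-M and 45.1 CPM in PC PTB7-Th:IEICO-4F. All neighbours in this order overlapped.

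**Figure D2:**
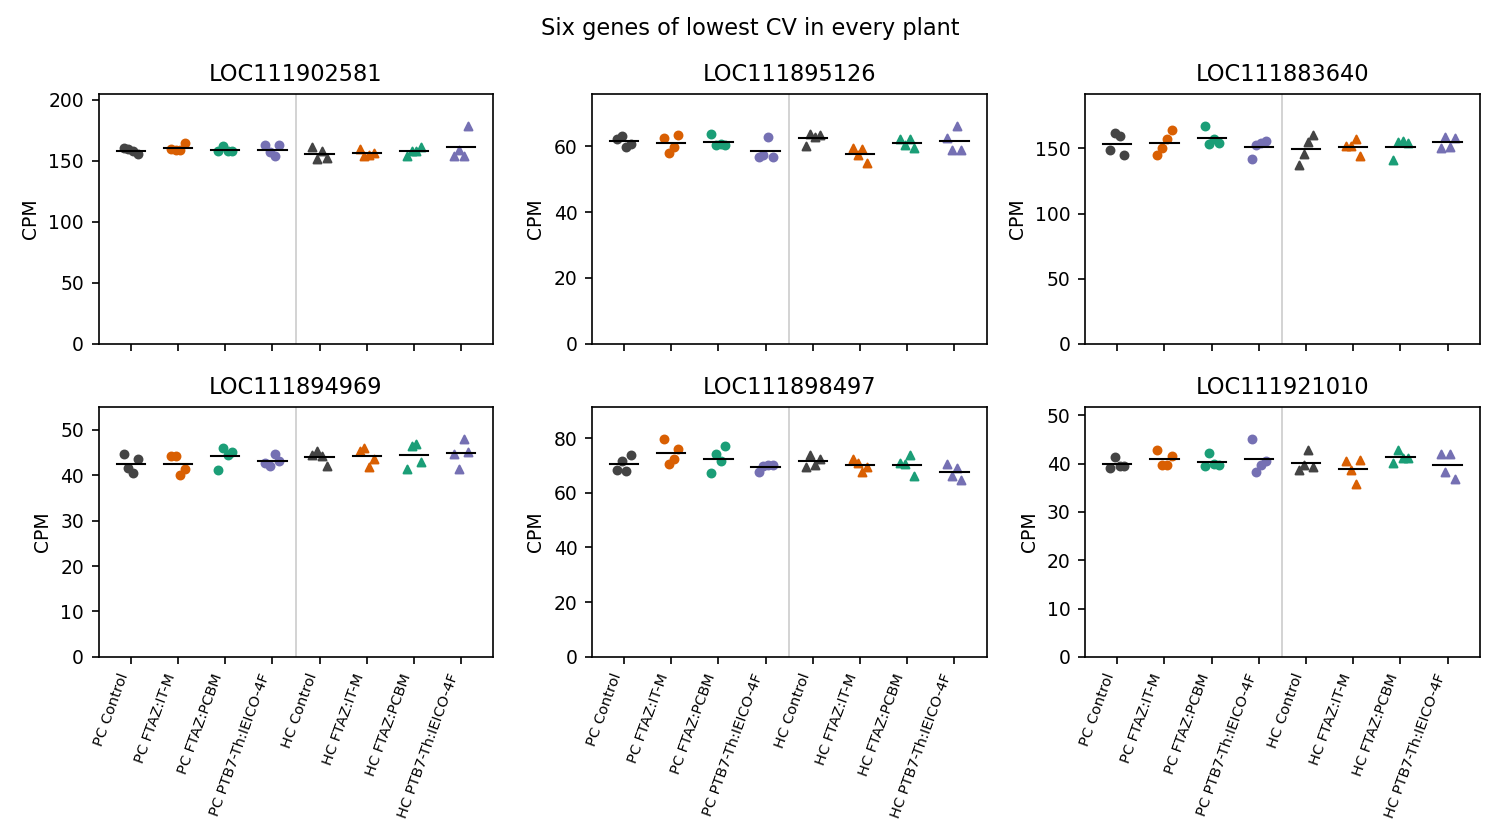
CPM in each of the 32 plants (points) and group means (bars) for the 6 genes of lowest CV, with a y axis from 0 CPM, PC groups as circles and HC groups as triangles. The groups lie at nearly 1 level in each panel, and the plant of LOC111902581 at 178.3 CPM in HC PTB7-Th:IEICO-4F is the only one that stands clear of its panel.

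The next 6 genes had CVs of 4.66% to 4.90%. LOC111884958 ranged from 104.6 to 124.7 CPM, LOC111886017 from 133.9 to 166.2 CPM and LOC111892228 from 28.97 to 34.7 CPM. LOC111877821 ranged from 69.9 to 86.9 CPM, LOC111907083 from 66.9 to 83.5 CPM and LOC111878811 from 122.7 to 149.2 CPM. In each of the 6, the highest plant was 1.192 to 1.248 times the lowest. LOC111907083 is 1 of the 2 members with a single exon block.

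The 2 experiments gave a check that the ranking itself did not use, because the 16 PC plants and the 16 HC plants are separate. The 150 window genes of lowest CV in PC had a median CV of 4.87% there and of 6.46% in HC, where the window median was 9.49%. In HC, 143 of them (95.3%) lay below the window median and 64 (42.7%) among the lowest 10%. The 150 of lowest CV in HC had a median CV of 4.39% there and of 7.49% in PC, where the window median was 11.7%. In PC, 137 of them (91.3%) lay below the window median and 63 (42.0%) among the lowest 10%. Steadiness in one experiment thus went with below-median spread in the other for most genes. The exact list did not carry over: the lists shared 20 genes, or 13.3% of each, and 13 genes when replicate 2 of every group was left out.

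Of the 150 members, 49 were on the list made from PC alone and 52 on the list made from HC alone. All 3 lists held 18 genes. These are the 5 of lowest CV (LOC111902581, LOC111895126, LOC111883640, LOC111894969 and LOC111898497), then LOC111884958, LOC111886017, LOC111892228, LOC111877821 and LOC111878811, and 8 of higher rank. The 8 are LOC111903953, LOC111918123, LOC111895244, LOC111881768, LOC111896192, LOC111913254, LOC111886858 and LOC111917931, which are named here after their values were seen. Over all members, the median CV was 5.71% in PC and 5.10% in HC, against 11.7% and 9.49% in the window. The CV was higher in PC than in HC for 94 of 150 members (62.7%) and for 71.5% of window genes.

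**Figure D3:**
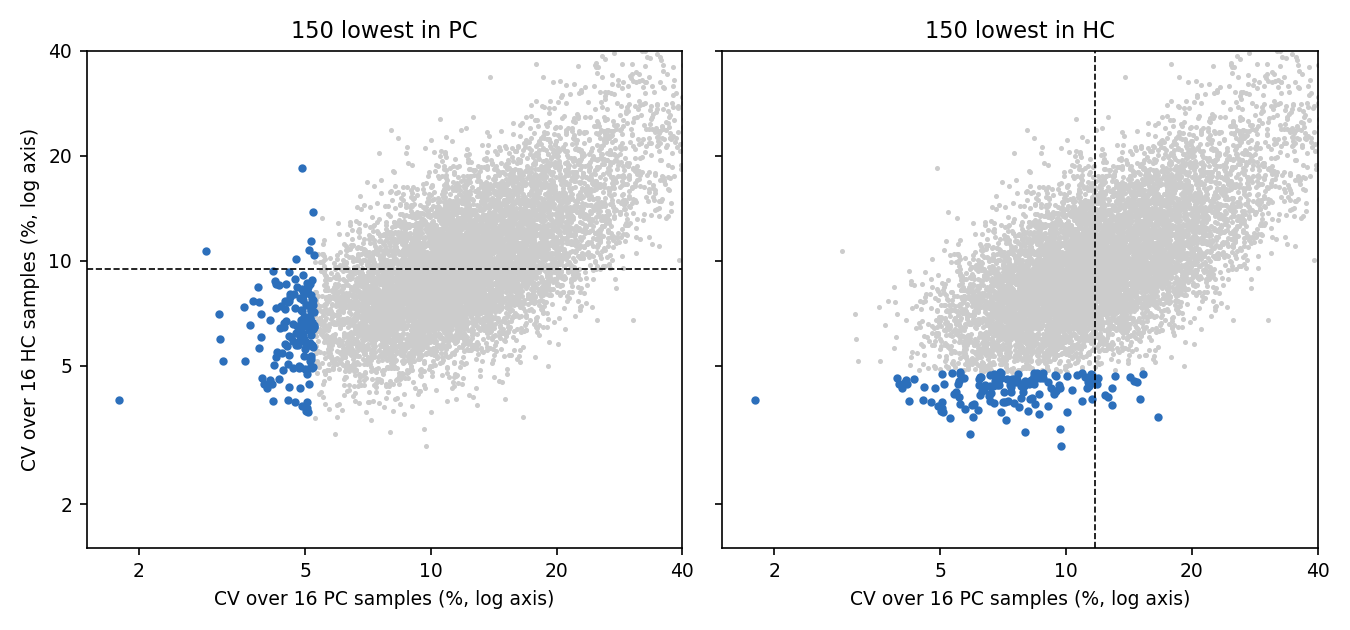
CV over the 16 PC plants (x) against CV over the 16 HC plants (y), in percent on log axes that end at 40%, for window genes (grey), with the 150 genes of lowest CV in PC in blue on the left and those of lowest CV in HC in blue on the right. The dashed lines are the window medians in the experiment not used for the ranking, 9.49% and 11.7%, and 143 and 137 of the 150 blue genes lie below them.

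The spread that members had lay more inside groups than between them. The rule ranked genes by spread over all plants, differences between groups included, so it favours genes whose group means lie close. The contrasts with the window given here are therefore descriptions, and how much of them the rule alone produces was not tested. The CV inside groups had a median of 4.88% and the CV of the 8 group means a median of 3.67%. In the window the order was the other way round, with 8.71% inside groups and 10.3% between group means. The share of a gene's variance that lay between the 8 groups had a median of 0.390 in members and 0.612 in the window. With 7 of 31 degrees of freedom between groups, part of that share arises from plant-to-plant spread alone, and after adjustment for them it was 0.212 in members and 0.499 in the window. The share between the 2 experiments had a median of 0.0550 in members against 0.195 in the window. The highest group mean of a member was 1.04 to 1.20 times its lowest, with a median of 1.12, against 1.34 in the window. It was under 1.1 times in 41 members (27.3%) and in 102 window genes (1.16%).

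Members differed in how far their small spread followed the groups. LOC111886858 had the highest share between groups, 0.781, with 126.9 ± 5.98 CPM in PC FTAZ:IT-M and 127.4 ± 1.18 in PC PTB7-Th:IEICO-4F at the low end and 145.5 ± 5.601 in HC FTAZ:PCBM and 146.5 ± 5.28 CPM in HC FTAZ:IT-M at the high end. The low groups did not overlap the high ones, with at most 133.6 CPM against at least 138.9 CPM. LOC111878840 had a share of 0.714 and the highest ratio between group means of any member, 1.20. Its means ran from 41.3 ± 0.820 CPM in PC FTAZ:IT-M to 49.6 ± 2.04 CPM in HC Control. LOC111893162, the member of highest mean CPM, had a share of 0.691, from 169.6 ± 9.22 CPM in HC PTB7-Th:IEICO-4F to 192.9 ± 2.59 CPM in PC FTAZ:IT-M. At the other end were LOC111894696 with a share of 0.0789, LOC111888447 with 0.0828 and LOC111876539 with 0.119. In LOC111894696 the plants of a single group, PC FTAZ:IT-M, ran from 108.2 to 141.4 CPM, while the 8 group means lay between 120.8 and 126.4 CPM.

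Members lay on both sides of equality between the experiments. The HC mean minus the PC mean, as a percentage of the overall mean, ran from -8.82% to 7.99% with a median of -0.338%, against a window median of -4.02%. It was higher in HC in 69 of 150 members (46.0%) and in 38.4% of window genes. In CPM, the lowest group mean was in PC FTAZ:IT-M for 44 members and in HC FTAZ:IT-M for 27. The highest was in PC FTAZ:PCBM for 35, in PC PTB7-Th:IEICO-4F for 31 and in HC Control for 29. The same counts over the window were not made, and nothing is read from those of the members. With another scaling, described below, the sum of members was lowest in PC PTB7-Th:IEICO-4F. The median CV of members inside a group was lowest in PC PTB7-Th:IEICO-4F, 3.35%, and highest in HC PTB7-Th:IEICO-4F, 5.36%. Those groups were also the lowest and the highest for the window, at 6.14% and 10.3%.

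Added together, the members took 1.00% of the counts, with a mean of 10029 CPM. The sum had a CV of 1.89% over the 32 plants, from 9622 CPM in PC FTAZ:IT-M replicate 2 to 10340 CPM in HC Control replicate 3. It was 10050 ± 196 CPM in PC and 10008 ± 186 CPM in HC (SD, n = 16 each). By group it was 10001 ± 232 in PC Control, 9905 ± 250 in PC FTAZ:IT-M, 10182 ± 109 in PC FTAZ:PCBM and 10113 ± 63.3 CPM in PC PTB7-Th:IEICO-4F. In HC it was 10154 ± 165 in Control, 9921 ± 191 under FTAZ:IT-M, 10034 ± 145 under FTAZ:PCBM and 9921 ± 195 CPM under PTB7-Th:IEICO-4F. The differences between these means were of the size of the SDs inside the groups.

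Members moved together to some extent from plant to plant. The number of members above their own mean ran from 32 in PC Control replicate 3 to 116 in HC Control replicate 3, with a median of 82. The plants with the lowest sums were PC FTAZ:IT-M replicate 2, HC FTAZ:IT-M replicate 4, PC Control replicate 3 and HC PTB7-Th:IEICO-4F replicate 4, at 9622, 9651, 9680 and 9726 CPM. In those plants the 10 most abundant genes took 6.54%, 6.80%, 6.30% and 6.93% of the counts. In the plants with the highest sums, HC Control replicate 3 at 10340 and PC FTAZ:PCBM replicate 2 at 10296 CPM, they took 5.74% and 5.75%. The part of that share in the sums was not tested. HC PTB7-Th:IEICO-4F replicate 4 was the lowest plant for 24 of the members and the highest for 5.

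How steady the members looked depended on the scale. TMM, the scaling of edgeR, estimates a library factor from most genes and leaves out those that differ most. On that scale members had CVs from 3.06% to 9.10% with a median of 5.71%, against 12.2% over the window. All 150 were below the window median and 136 in the lowest 10%. The 150 lowest genes on the TMM scale shared 60 with the members. LOC111902581 went from rank 1 to rank 184, with a CV of 5.596%. LOC111886017 took rank 1, at 3.06%. LOC111902033 had the last rank of any member, 2229, at 9.10%.

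On the TMM scale the sum of members was lowest in PC PTB7-Th:IEICO-4F, 9598 ± 23.6 CPM, whose plants at 9567 to 9624 CPM lay below those of every other group. PC Control was next at 9832 ± 99.9 CPM, with plants from 9708 to 9950. The other 6 group means ran from 10067 ± 110 CPM in HC Control to 10242 ± 121 CPM in HC FTAZ:IT-M. On the total-count scale the same PC PTB7-Th:IEICO-4F plants, 10041 to 10195 CPM, overlapped all other groups. Their TMM factors were 1.05 to 1.06, and the lowest factor of all plants was 0.911 in HC PTB7-Th:IEICO-4F replicate 4. The CV of the sum was 2.54% on the TMM scale and 1.89% on the total-count scale. Which scale is nearer to transcripts per leaf cell was not tested, since no spiked-in RNA was analysed here.

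**Figure D4:**
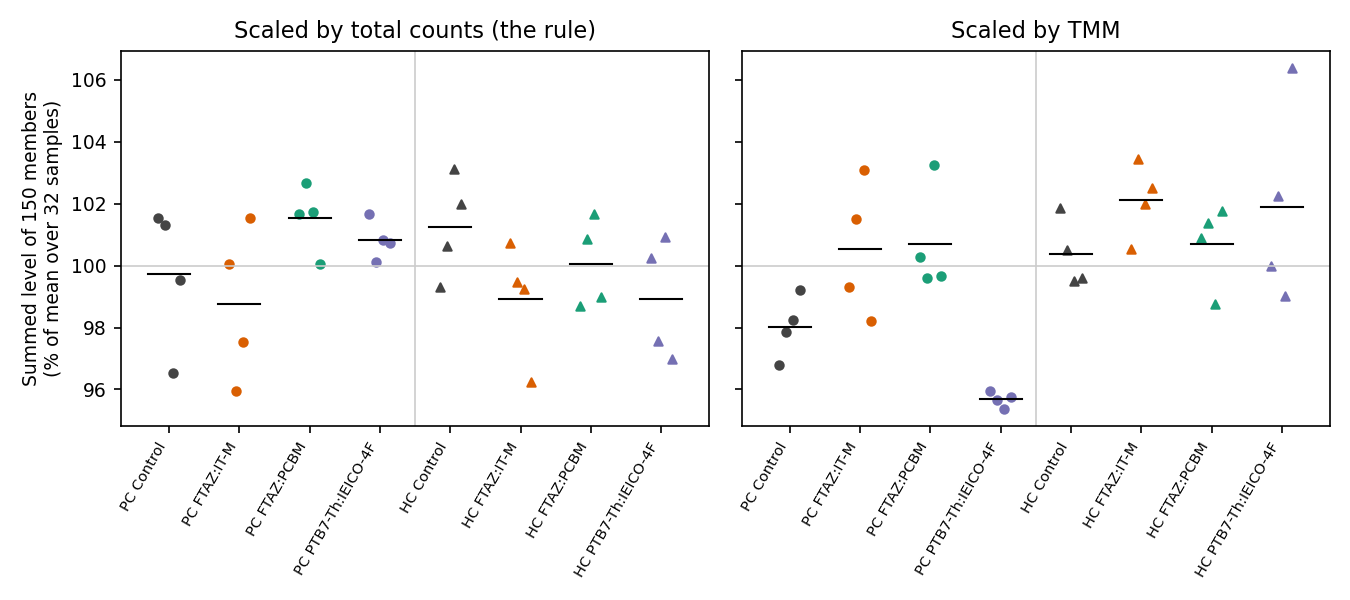
Summed level of the 150 members in each plant, as a percentage of its mean over 32 plants (y), by group (x), scaled by total counts on the left and by TMM on the right, with group means as bars. The 4 PC PTB7-Th:IEICO-4F plants lie among the others on the left and below all other plants on the right.

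A measure that no library scaling can change is the spread of the ratio between a pair of genes in the same plant. The geNorm M of a member is the mean, over the other members, of the SD of the log2 ratio to them. It ran from 0.0921 to 0.126 with a median of 0.107. It was lowest in LOC111895126, LOC111886017 and LOC111902581 and highest in LOC111902033, LOC111887301 and LOC111911117. Of 11175 pairs, the steadiest was LOC111878810 with LOC111885046. The ratio of their CPM values, not divided by length, stayed between 2.21 and 2.55 in all 32 plants, with an SD of 0.0531 on the log2 scale. The least steady was LOC111902033 with LOC111911351, with a ratio from 1.02 to 1.60 and an SD of 0.161. Taken against all window genes in place of the members, M was lowest in LOC111886017. The 150 genes of lowest M over the window shared 63 with the members and 111 with the TMM list. The rule, TMM and M lists had 54 genes in common, among them LOC111895126, LOC111898497, LOC111921010, LOC111884958, LOC111886017, LOC111892228 and LOC111877821 of the 12 lowest.

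The comparisons between groups were fitted on the raw counts of all 24483 genes that passed a low-count filter, with TMM scaling and edgeR's quasi-likelihood F-test. A gene is called at a Benjamini-Hochberg adjusted p under 0.05, and changes are log2 fold changes on the TMM scale. All 150 members passed the filter. Since the rule chose members for low spread over these same plants, nothing is read from the counts of called members. Counts of the main fit are printed beside the share of all genes called. Counts with a plant left out stand without the share called in the same refit, so their changes cannot be set against those of all genes.

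Between HC Control and PC Control, 32.2% of all genes tested and 11 of 150 members were called, 10 higher and 1 lower in HC. With scaling by the summed counts of the members it was 4, 2 higher and 2 lower, and 3 of these were among the 11. LOC111886163 had the highest rise, by 0.20 ± 0.05 (log2, SE), from 79.0 ± 0.328 CPM in PC Control to 90.3 ± 6.30 CPM in HC Control, and its groups did not overlap. The member called lower was LOC111917931, at -0.15 ± 0.05. The median over members was 0.04, beside 0.00 over all genes tested. The call count changed when single plants were left out, over a range of 3 to 12. It was 5, 4 and 7 without PC Control replicates 1, 2 and 3, and 3, 5 and 6 without HC Control replicates 1, 2 and 3.

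Under FTAZ:IT-M in PC, 7.26% of all genes tested and 2 members were called against PC Control. These were LOC111893162, at 0.17 ± 0.05, and LOC111908772, at 0.20 ± 0.05, both higher under the filter. The 4 filtered plants of LOC111893162 had 189.1 to 194.2 CPM against 172.9 to 185.4 CPM in PC Control. The count was 0, 1 and 8 without PC FTAZ:IT-M replicates 2, 3 and 4, and 0 and 4 without PC Control replicates 1 and 4.

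Under FTAZ:PCBM in PC, 15.7% of all genes tested and 7 members were called, all higher under the filter, by 0.13 to 0.19. That split depended on the scale. With scaling by the summed counts of the members, 6 were called, 1 higher and 5 lower, of which 1 was among the 7. With total counts 1 was called, higher. The 7 kept their sign on both scales. The plants of PC FTAZ:PCBM also had the highest mean slope of log2 CPM on gene length of the 8 groups, 0.156 ± 0.0891 against -0.0549 to 0.0341, and its part in these calls was not tested. Of the 7, LOC111906865, LOC111878396 and LOC111917335 were also higher in HC Control than in PC Control. No other member was called in more than 1 of the 7 comparisons, and these comparisons share the PC Control plants. LOC111917335 had 128.8, 128.4, 133.3 and 134.6 CPM in PC Control, 142.4, 158.2, 146.1 and 141.0 CPM in PC FTAZ:PCBM and 146.0, 146.4, 147.97 and 142.5 CPM in HC Control. The PC Control plants were the low ones and overlapped neither group. Its log2 changes were 0.17 ± 0.06 under the filter and 0.16 ± 0.06 for HC Control. The call was lost in 8 and 7 of 15 alternatives. Among these were PC Control replicate 1 or 2 left out in both comparisons, PC FTAZ:PCBM replicate 2 or 3 in the first and HC Control replicate 1 or 2 in the second.

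LOC111878396 had 76.1, 65.3, 64.6 and 67.6 CPM in PC Control, 78.2, 82.9, 75.5 and 72.5 CPM in PC FTAZ:PCBM and 74.3, 79.2, 77.8 and 71.7 CPM in HC Control. PC Control replicate 1 overlapped the other groups and the remaining 3 control plants lay below them. Its call was lost in 4 of 15 alternatives under the filter and in 6 of 15 for HC Control. Among these were PC Control replicate 2 or 3 left out in both comparisons, PC FTAZ:PCBM replicate 2 in the first and HC Control replicate 1 or 2 in the second. LOC111906865 had 38.7, 38.1, 34.6 and 39.0 CPM in PC Control and 43.8, 43.4, 41.0 and 38.1 CPM in PC FTAZ:PCBM, which overlapped. In HC Control it had 40.8, 41.7, 42.1 and 39.5 CPM, above all PC Control plants. Its call was lost in 10 of 15 alternatives in each comparison, among them leaving out replicate 1, 2 or 3 of PC Control or of the group compared with it. The count of 7 was 3 and 1 without PC Control replicates 2 and 3, and 4, 3 and 2 without PC FTAZ:PCBM replicates 1, 2 and 3.

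Under PTB7-Th:IEICO-4F in PC, 3.35% of all genes tested and 1 member were called. LOC111919078 was lower under the filter, by -0.21 ± 0.06, with 98.8, 101.3, 97.2 and 93.3 CPM against 105.0, 118.2, 105.0 and 109.1 CPM in PC Control, and the groups did not overlap. The call was lost without PC Control replicate 2, 3 or 4 and without filter replicate 1 or 4, which gave 0 members. It was also lost without filter replicate 3, where another member was called instead. In HC, edgeR called 0 members under PTB7-Th:IEICO-4F, where 3.83% of all genes tested were called, 0 under FTAZ:PCBM, where 0.0327% were, and 0 under FTAZ:IT-M, where 0% were. At an unadjusted p under 0.05 there were 12, 8 and 9 members in that order, beside 18.7%, 7.05% and 7.14% of all genes tested. DESeq2's Wald test called 1, 0 and 0, beside 5.92%, 0.151% and 0.0940% of the genes it tested.

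Over the 7 comparisons, 132 of 150 members were not called in any and 18 were called in at least 1. Over all genes tested 45.6% were called in at least 1, and over the window 59.5%. The rule favours members with few calls, so nothing is read from this. At an unadjusted p under 0.05 there were 24 members for HC Control against PC Control, beside 42.2% of all genes tested. In PC there were 20 under FTAZ:IT-M, 28 under FTAZ:PCBM and 12 under PTB7-Th:IEICO-4F, beside 23.2%, 29.6% and 18.1%. DESeq2's Wald test called 14 members for HC Control, beside 33.8% of the genes it tested. In PC it called 8, 16 and 5 members for the filters in the same order, beside 11.1%, 18.8% and 5.77%. The fitted log2 changes of members lay between -0.21 and 0.20 throughout. The 95% interval of the change lay within ±0.25 for 133 to 145 members in each comparison and within ±0.5 for all 150. In the window, 26.3% to 49.0% of genes had an interval within ±0.25. The median change of members ran from -0.03 to 0.04. With scaling by total counts it turned sign in 4 of the 7 comparisons. It was -0.02 in place of 0.03 for FTAZ:IT-M in PC, 0.02 in place of -0.03 for PTB7-Th:IEICO-4F in PC, -0.04 in place of 0.02 for FTAZ:IT-M in HC and -0.04 in place of 0.02 for PTB7-Th:IEICO-4F in HC. No direction of the members as a whole is therefore given for these.

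The difference of a filter's effect between experiments (HC minus PC, an interaction contrast) was called for 0 members under FTAZ:IT-M, 1 under FTAZ:PCBM and 2 under PTB7-Th:IEICO-4F. Over all genes tested the shares were 2.65%, 4.60% and 2.00%. At an unadjusted p under 0.05 there were 16, 17 and 22 members, beside 19.6%, 21.3% and 15.9% of all genes tested. DESeq2's Wald test called 2, 6 and 2 members for the 3 filters, 10 in place of 3, beside 5.79%, 8.37% and 3.96% of the genes it tested. The total of 3 was 0, 1 and 1 without PC Control replicates 2, 3 and 4, and 0 and 6 without HC Control replicates 3 and 4. Without replicate 4 it was 6 for PC FTAZ:IT-M, 7 for PC FTAZ:PCBM, 1 for PC PTB7-Th:IEICO-4F and 5 for HC PTB7-Th:IEICO-4F.

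Properties of the gene models were not used by the rule. The summed exonic length of members had a median of 1805 bases, close to the 1772 of the window and above the 1488 of all genes with a read. The range was narrow, from 1042 bases in LOC111904146 to 3932 bases in LOC111920522, against 106 to 16570 in the window. Members were 0 of 1207 window genes under 1000 bases, 100 of 4085 (2.45%) from 1000 to 2000, 46 of 2232 (2.06%) from 2000 to 3000 and 4 of 1254 (0.319%) above. The median CV of all window genes in these classes was 14.4%, 12.3%, 11.5% and 13.9%. Spread was thus higher at both ends of the length range.

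Libraries also differed in how log2 CPM depended on length. The mean slope per group, on log2 length relative to the mean of all plants, was 0.156 ± 0.0891 in PC FTAZ:PCBM and lay between -0.0549 and 0.0341 in the other 7 groups. Its part in the shortage of very short and very long members was not tested.

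Members had more separate exon blocks than other window genes, with a median of 8.5 against 6, and 4 over all genes with a read. Among window genes of 1500 to 2200 bases, the medians were 8 for 93 members and 7 for all 2810. A single block was found in 2 members (1.33%) and in 7.79% of the window. Members were 0.292% of window genes with 1 block, 0.689% with 2 or 3, 1.77% with 4 to 7, 2.62% with 8 to 12 and 2.20% with 13 or more. The median CV of window genes over the same classes was 15.5%, 14.1%, 12.8%, 11.6% and 11.5%. LOC111920522, the longest member, has 28 blocks. The share of members with a single transcript in the Lsat_Salinas_v11 table, 75.3%, was near the 72.1% of the window.

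**Figure D5:**
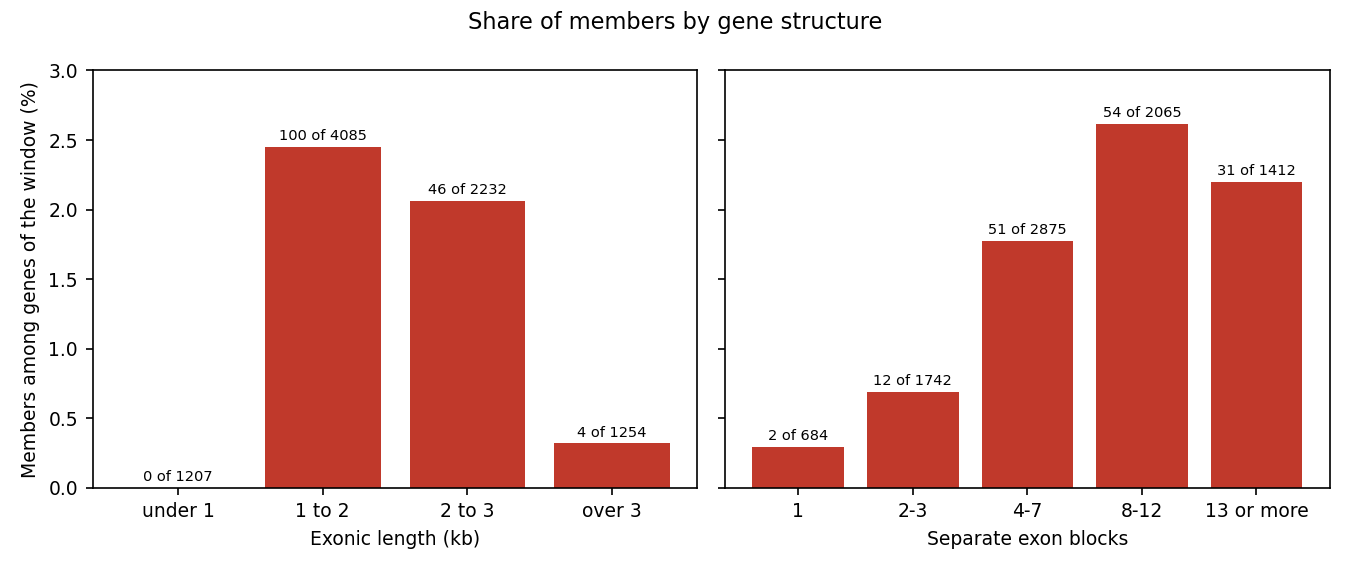
Members as a percentage of window genes (y, from 0) by exonic length class in kb (left) and by number of separate exon blocks (right), with the counts above each bar. Members are 0 of 1207 genes under 1 kb and 4 of 1254 over 3 kb, and their share is 0.292% in genes of 1 block and 2.62% in genes of 8 to 12.

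The members were scattered over the genome. They lay on 136 scaffolds, 123 of them alone on theirs, with at most 3 on 1 scaffold. The only neighbours with no gene between them were LOC111876908 and LOC111876909 on scaffold NW_019678444.1, 89446 bases apart. In the Lsat_Salinas_v11 table all 9 chromosomes held members, from 12 on chromosome 1 to 25 on chromosome 5. As a share of window genes this was 1.44% on chromosome 8 to 2.45% on chromosome 7. Another annotated gene overlapped 5 members (3.33%), against 3.90% of the window, and in 4 of the 5 it lay on the other strand. Overlap here is of whole gene spans, introns included. Where exonic bases are shared, reads from opposite strands cannot be told apart, as the headers show no strand option.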

How the data were processed

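The deposited values are raw read counts for each gene from featureCounts 2.0.1, run on the RefSeq annotation of Lsat_Salinas_v7, per the file headers, with no option for strand, multi-mapping reads or read pairs. Reads that map to several places then are left out, which lowers the counts of genes that have near-identical copies. HISAT2, FastQC and DESeq2 are named without versions, per the submitters' processing notes. The authors applied no normalization to the counts. From the counts, CPM was computed on column totals of 47289413 to 48764530 counts, a depth at which 3 counts are 0.0615 to 0.0634 CPM. Such floors and counting CVs cover counting error only.

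The labels gave the groups and replicate numbers. They spell 1 filter in more than 1 way. Each of the 32 samples is a plant, 4 per group, and the fit treats plants as separate whether or not they shared a pot or a box. The members, lists and tests were chosen with earlier results of these data known. Genes were named by rule: the 12 of lowest CV, the ranks on each side of the end of the list, the extremes of mean, length, share of variance between groups and geNorm M, and the 3 called in most comparisons. Other genes were named after their values were seen, as called members, as members of several lists or as ends of a range of pairs or neighbours. Lists of common reference genes, of light-response and anthocyanin genes, of leaf markers and of promoter motifs were drawn up but not analysed here, since LOC identifiers carry no product names and no sequence was used.

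Comparisons used filterByExpr (minimum count 10, minimum total 15), TMM and the quasi-likelihood F-test of edgeR 4.0.16 (limma 3.58.1, R 4.3.3) in 1 model of all 32 samples with a mean per group. P-values were adjusted by Benjamini-Hochberg over 24483 genes. DESeq2 1.42.0 and other scalings, filters, models and left-out plants were the alternatives. Those on M over the window, on HC PTB7-Th:IEICO-4F replicate 4, on the lists of 1 experiment and on the interaction were chosen after seeing the data. Log2 CPM for slopes and correlations used a prior count of 2. Python 3.11.15, pandas 2.3.3, numpy 2.4.6 and scipy 1.17.1 did the rest. The ranking and the fit were also run on simulated data, as a check of the code. The low-spread genes there were set apart by a gap that the real list lacks. The planted changes were larger than those of the called members. The simulations therefore say nothing on the end of the list or on these calls.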

Additional observations from a re-analysis of the deposited data

Results flagged for a closer look

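In a group of 4, a plant is pointed out here when its gap to the nearest other plant, divided by the range of the group, is above Dixon's 95% critical value for 4 values. Of 80 combinations examined, of a group with a gene or with the members' sum, 6 met this, where about 4.0 are met by chance. LOC111902581 had a ratio of 0.982 in PC FTAZ:PCBM, with replicate 2 at 162.5 CPM and the others at 157.7 to 157.8. LOC111895126 had 0.840 in PC FTAZ:PCBM, with replicate 1 at 63.8 CPM and the others at 60.2 to 60.8. It had 0.916 in PC PTB7-Th:IEICO-4F, with replicate 3 at 62.9 CPM and the others at 56.7 to 57.2. LOC111883640 had 0.898 in HC FTAZ:PCBM, with replicate 1 at 140.8 CPM and the others at 154.4 to 155.9. LOC111898497 had 0.831 in PC PTB7-Th:IEICO-4F, with replicate 1 at 67.7 CPM and the others at 69.9 to 70.4. LOC111917335 had 0.891 in HC FTAZ:IT-M, with replicate 2 at 158.4 CPM and the others at 142.7 to 144.4.

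For 3 members the effect of a filter differed between the experiments by edgeR's interaction contrast (HC minus PC, adjusted over 24483 genes). The rule chose them for low spread over the same plants, so these are descriptions. LOC111887264 differed by -0.23 ± 0.06 (log2, SE) for FTAZ:PCBM, with an adjusted p of 0.0344. Its means were 132.1 ± 9.09 in PC Control, 145.2 ± 3.40 in PC FTAZ:PCBM, 136.0 ± 2.39 in HC Control and 126.9 ± 2.26 CPM in HC FTAZ:PCBM (SD, n = 4). All 4 filtered plants lay above the controls in PC and below them in HC. LOC111876667 differed by 0.28 ± 0.07 for PTB7-Th:IEICO-4F, with an adjusted p of 0.0350. Its means were 88.0 ± 3.13 in PC Control, 80.9 ± 0.531 in PC under the filter, 80.7 ± 2.54 in HC Control and 83.8 ± 3.99 CPM in HC under the filter. LOC111919078 differed by 0.33 ± 0.08 for PTB7-Th:IEICO-4F, with an adjusted p of 0.0269, from 109.3 ± 6.26 to 97.6 ± 3.33 CPM in PC and from 104.4 ± 5.66 to 108.9 ± 4.18 CPM in HC. The adjusted p of these 3 differences ran from 0.00249 to 0.0910, from 0.00575 to 0.243 and from 0.00521 to 0.109 over the alternatives, and the direction was the same in all of them.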

How the results depend on the processing

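Of the 150 members, 137 were kept when ranked by the SD of log2(CPM + 1), and 134 with a wider window or with no limit but a mean of at least 1 CPM. Only 60 were kept with TMM scaling, 60 with DESeq2 size factors, 67 with the median absolute deviation over the median, 49 with PC plants alone, 52 with HC plants alone, 62 with the CV over group means and 63 with geNorm M over the window. Leaving out a replicate number from every group, or HC PTB7-Th:IEICO-4F replicate 4, kept 97 to 117. The overlap of 20 between the lists of the experiments was 21 and 22 with TMM and DESeq2 scaling and 13 to 18 without a replicate. Without a replicate number, the median M was 0.105 to 0.108. The median share of variance between groups was then 0.424 to 0.495, above the 0.390 with all plants. That between experiments was 0.0442 to 0.0682, around 0.0550 with all plants. These shares are not adjusted for degrees of freedom, and with fewer plants more of the share between groups arises from plant-to-plant spread alone.

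Called members in HC Control against PC Control (11, of which 10 higher) were 4 with scaling by the members' sum (2 higher, 2 lower), 5 without a low-count filter and 3 in a smaller model, fitted on the compared groups alone. For FTAZ:IT-M in PC (2) they were 0 with total counts, 1 with the members' sum, 0 in the smaller model and 8 with DESeq2's Wald test. For FTAZ:PCBM in PC (7, all higher) they were 6 with the members' sum (1 higher, 5 lower), 1 with total counts, 3 without a filter, 0 in the smaller model and 16 with the Wald test. For PTB7-Th:IEICO-4F in PC (1) they were 0 with total counts, 0 without a filter and 5 with the Wald test, and for it in HC (0) 1 with the Wald test. For the interactions (3) they were 0 with total counts, 1 with the members' sum, 1 without a filter, 0 in the smaller model and 10 with the Wald test. With 1 plant left out the counts ran over 3 to 12, 0 to 8, 1 to 10, 0 to 1, 0 to 0 in the 3 HC comparisons and 0 to 7 for the interactions. Over all genes tested, the main fit called 32.2% for HC Control against PC Control, total counts 30.3% and the members' sum 32%. In PC these shares were 7.26%, 6.35% and 7.4% for FTAZ:IT-M and 15.7%, 13.7% and 15.9% for FTAZ:PCBM. For PTB7-Th:IEICO-4F in PC they were 3.35%, 2.92% and 3.13%. The Wald shares stand above, and those of the other alternatives are not given here. The cause of the changes in count was not tested.

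Equal replicate numbers did not pair the plants: the deviations of same-numbered plants correlated by -0.166 to 0.190, and at most 1 of 4 pairs per comparison was over 0.1. With the replicate number as a block, the counts were 7, 3, 6, 1, 0, 0 and 0 in the order above, and 3 for the interactions.

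Among the alternative values for single genes, 0 turned direction, 96 lost the call and 279 held. In the other 36 the CV moved by more than its approximate standard error. With TMM scaling the CV moved in 15 of the genes checked and held in 14. With DESeq2 size factors it moved in 14 and held in 15. Depth limits little here, as counting error is below the plant-to-plant spread in every member, but n = 4 limits each group mean.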
